A study of Mus musculus with 4 samples.

Results

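The surface endothelium of the mouse mitral valve, the cell sheet that covers the leaflets and faces the blood, was taken from droplet single-cell RNA counts as 205 of the 776 cells kept in the mitral valve libraries, out of 2160 cells deposited for the whole series. A cell was kept when it had 500 or more genes with a unique molecular identifier count (UMI) and at most 10% of its UMIs from mitochondrially encoded genes. It was called a surface endothelial cell when at least 2 of the 7 endothelial genes Cdh5, Pecam1, Emcn, Egfl7, Ecscr, Esam and Npr3 had a UMI and fewer than 2 of the 3 capillary genes Fabp4, Cd36 and Gpihbp1 did. Members were thus chosen by the UMIs of these 10 genes, and the gate passed 79 of 283 kept cells in P0 replicate 1, 48 of 177 in P0 replicate 2 and 78 of 316 at E16.5. The same libraries held 85, 41 and 56 capillary-gated cells, which had at least 2 endothelial and at least 2 capillary genes, and 119, 88 and 182 cells outside both gates.

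The cells came from the progeny of C57BL/6 Tie2-Cre mice that also carried the Rosa26 tdTomato reporter, in newborns at P0 (2 libraries) and in embryos at E16.5 (1 library). Valves of at least 60 animals per stage were microdissected, digested for 5 or 10 min and sorted for tomato fluorescence, so each library is a pool. Tie2-Cre is active in endothelium and endocardium, and a cell that has since left the endothelium keeps the reporter, so sorted cells include interstitial descendants and, where the promoter was active, blood cells. Because tdTomato is missing from the list of counted genes, the counts do not show how well the sort worked. For the E16.5 library the age entry was mistyped and the stage was read from the title, and the E9.5 atrioventricular canal library was not used here.

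Valve endothelium descends from the endocardium, and some of its cells enter the cushion and become interstitial cells, a step that BMP, TGF-β and Notch signals take part in. The sheet that remains is exposed to shear from the blood, which endothelial cells sense through channels such as Piezo1 and answer through transcription factors such as Klf2 and Klf4. Nfatc1 is a calcium-regulated transcription factor needed for valve formation in mice, and Npr3 is the clearance receptor for natriuretic peptides.

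Surface endothelial cells held 512971 and 249247 UMIs in the P0 libraries and 220371 at E16.5, with a median of 4894 and 4164 UMIs per cell at P0 and 2447.5 at E16.5. The E16.5 library stood apart: surface endothelial cells had a median of 1963 and 1689 genes at P0 and 854.5 at E16.5. The nuclear RNA Malat1 stood at 487 and 483 UMIs per 10000 in surface endothelial cells at P0 and 6.90 at E16.5, and at 288 and 287 in the other kept cells at P0 and 6.6 at E16.5. The P0 barcode lists appear exchanged, with 211 entries for the matrix of 291 cells and 291 for that of 211. The lists share 4 barcodes, and the E16.5 list holds every possible barcode, so cells shared with that library could not be counted. The labels do not say whether the P0 replicates are separate litters, and the p-values then cover the spread from library to library, technical sources included. All counting intervals cover counting error only.

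UMIs were summed per library and class of cells, and a level is given as UMIs per 10000 UMIs of that sum, with the P0 values in the order of replicate 1 and replicate 2. A gene was called where the adjusted p of edgeR's quasi-likelihood test over all genes tested was under 0.05 and surface endothelial cells lay on the same side in all 3 libraries. The 10 gate genes define the cells and were left out of the counts of the class comparisons. They remain in the stage comparisons, where Esam, Ecscr and Fabp4 are among the genes called lower at P0. Other endothelial genes accompany them, so a rise against all other cells mainly describes the label, and the comparison with capillary-gated endothelium, whose own gate fixes its capillary genes, bears more on what sets the valve surface apart.

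Among the gate genes, Npr3 stood at 3.24 and 2.69 UMIs per 10000 in surface endothelial cells at P0 and 1.63 at E16.5, against 0.803 and 0.281 at P0 and 0 at E16.5 in capillary-gated cells. Emcn, an endothelial sialomucin, stood at 5.22 and 6.90 at P0 and 3.13 at E16.5 in surface endothelial cells, against 2.42 and 2.22 at P0 and 1.34 at E16.5 in capillary-gated cells. Ecscr, an endothelial surface protein, did not separate the classes, with 4.25 and 4.25 at P0 and 4.72 at E16.5 in surface endothelial cells, against 4.0 and 3.38 at P0 and 5.92 at E16.5 in capillary-gated cells. Cdh5, the adherens junction cadherin of endothelium, stood at 3.96 and 3.53 at P0 and 4.22 at E16.5 in surface endothelial cells, below the 9.43 and 7.97 at P0 and 6.03 at E16.5 of capillary-gated cells. Fabp4, a fatty acid binding protein gene of capillaries, stood at 2.67 and 3.17 at P0 and 5.76 at E16.5 in surface endothelial cells, against 82.8 and 76.7 at P0 and 74.5 at E16.5 in capillary-gated cells. These values chose the cells and are a description.

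Nfatc1, which the gate did not use, stood at 0.916 and 0.843 UMIs per 10000 in surface endothelial cells at P0 and 0.681 at E16.5. Capillary-gated cells had 0.277 and 0.406 at P0 and 0.103 at E16.5, and cells outside both gates had 0.322 and 0.227 at P0 and 0.336 at E16.5. The surface endothelial value was the highest of the classes in each of the 3 libraries. Nfatc1 rose by 1.49 ± 0.266 (log2, SE, 3 libraries) against all other cells (edgeR adjusted p = 0.00322) and by 1.62 ± 0.352 against capillary-gated cells (edgeR adjusted p = 0.000372). Without P0 replicate 2 the first of these was not called (edgeR adjusted p = 0.0533). Nfatc1 was listed as a marker of this part with earlier results of these data known. Its rise therefore describes the label and does not test it. The rise is in class sums, which do not show it for each cell.

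At the edge of the gate the cells were less uniform. With exactly 2 endothelial genes, just inside, were 6 and 2 cells at P0 and 25 at E16.5, and with 1, just outside, 25 and 13 at P0 and 37 at E16.5. In P0 replicate 1 the cells just inside had 21.4 UMIs per 10000 of Postn and 9.72 of Col1a1, matrix genes of interstitial cells, and the cells just outside had 18.9 and 19.3. In P0 replicate 2 the 2 cells just inside had 2.30 of Postn, 0 of Col1a1 and 52.9 of Fabp4, and the cells just outside had 11, 13.7 and 1.21. At E16.5 the cells just inside had 8.79 of Postn and 1.65 of Col1a1, and the cells just outside had 20.1 and 13.9. Just inside, Nfatc1 stood at 0.442 and 0 at P0 and 0.412 at E16.5. The cells just outside had 0.387 and 0 of Nfatc1 at P0 and 0.334 at E16.5, so it hardly separated the cells at this edge. At the capillary edge, 17 and 6 capillary-gated cells at P0 and 21 at E16.5 had exactly 2 capillary genes. Npr3 stood in them at 3.58 and 1.42 UMIs per 10000 at P0 and 0 at E16.5. Those with all 3 capillary genes had 0.196 and 0.108 at P0 and 0 at E16.5. At P0 the capillary-gated class thus holds some cells with Npr3, which limits it as a contrast. Scrublet marked 0 surface endothelial cells as doublets in each P0 library and 7 at E16.5.

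The promoter sequences of 3 genes among those that rose most against the other cells are shown. They were picked for holding the core letters bound by NFAT factors, GGAAAA or its reverse complement TTTTCC. Cd59a, which holds 2 copies, is not printed. Whether Nfatc1 acts on any of these genes was not tested. The sequences are the 250 bases before the start site in RefSeq on GRCm38.p6, read 5′ to 3′ on the gene's strand, with the core in capitals. Cytl1 encodes a secreted cytokine-like protein (window chr5:37735269-37735518, plus strand), Ahsg encodes fetuin-A, a plasma glycoprotein that inhibits calcification (chr16:22891765-22892014, plus strand), and Foxc1 encodes a forkhead transcription factor (chr13:31806396-31806645, plus strand).
Cytl1: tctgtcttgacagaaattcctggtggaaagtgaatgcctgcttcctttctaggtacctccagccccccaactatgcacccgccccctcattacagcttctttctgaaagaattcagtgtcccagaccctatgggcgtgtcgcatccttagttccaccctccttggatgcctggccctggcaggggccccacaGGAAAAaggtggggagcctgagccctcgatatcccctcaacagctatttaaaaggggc
Ahsg: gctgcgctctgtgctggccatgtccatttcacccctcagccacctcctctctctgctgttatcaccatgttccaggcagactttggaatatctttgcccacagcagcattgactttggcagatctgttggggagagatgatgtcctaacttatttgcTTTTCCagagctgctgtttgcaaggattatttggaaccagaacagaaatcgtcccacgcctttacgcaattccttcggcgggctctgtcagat
Foxc1: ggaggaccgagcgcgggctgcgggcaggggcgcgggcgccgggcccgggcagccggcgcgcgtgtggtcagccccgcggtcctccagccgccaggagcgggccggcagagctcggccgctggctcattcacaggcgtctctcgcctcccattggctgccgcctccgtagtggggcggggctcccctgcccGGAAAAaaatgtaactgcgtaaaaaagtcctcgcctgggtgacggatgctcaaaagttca
The core lies 58 bases before the start in Cytl1, 93 in Ahsg (opposite strand) and 60 in Foxc1, where it overlaps the ETS core CCGGAA.

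Of the 12 genes with the largest rise against the other cells, 9 have promoter windows in the RefSeq table, 12 windows in all. GGAAAA was on either strand of 4 of these 12 windows (33.3%), against 20.4% of all 32817 windows. The KLF core CCACCC was in 3 of the 12 (25.0%), against 28.1% of all windows, the ETS core CCGGAA in 1, against 12%, and the GATA core AGATAA in 0, against 9.99%. A match is a description of these letters and not a binding site.

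Against all other kept cells of the same library, 210 of 2874 genes were called higher in surface endothelial cells, 7.31% of those tested, and 199 were called lower, 6.92%. Among called genes with at least 1 UMI per 10000 in surface endothelial cells of each library, Cytl1, Ahsg, the endothelial diaphragm gene Plvap and the IGF-binding protein gene Igfbp5 rose most. The other cells are a mixture of capillary-gated cells and cells outside both gates, so a gene can be called higher while its level is below that of the cells outside both gates. The numbers of calls rested on the libraries: without P0 replicate 2 they were 81 higher and 64 lower, without P0 replicate 1 134 and 120, and without E16.5 287 and 241.

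Cytl1 stood at 1.72 and 3.37 UMIs per 10000 in surface endothelial cells at P0 and 2.90 at E16.5, against 0.161 and 0.281 at P0 and 0.361 at E16.5 in capillary-gated cells. Cells outside both gates had 0.0967 and 0.0681 at P0 and 0.291 at E16.5. Surface endothelial cells were the highest class in each library, and Cytl1 rose by 3.72 ± 0.267 (log2, SE) against all other cells (edgeR adjusted p = 1.03e-05). Ahsg stood at 2.07 and 2.37 in surface endothelial cells at P0 and 1.5 at E16.5, against 0.387 and 0.25 at P0 and 0.0224 at E16.5 in cells outside both gates. It had 22, 11 and 12 positive surface endothelial cells in P0 replicate 1, P0 replicate 2 and E16.5, and rose by 3.59 ± 0.339 (edgeR adjusted p = 4.84e-05). In P0 replicate 2 a single cell held 30 of the 59 Ahsg UMIs, and a single cell held 26 of the 84 Cytl1 UMIs. Plvap stood at 2.42 and 3.21 in surface endothelial cells at P0 and 2.54 at E16.5, against 0.526 and 0.375 at P0 and 0.618 at E16.5 in capillary-gated cells, and it rose by 3.26 against all other cells (edgeR adjusted p = 1.39e-05). Igfbp5 stood at 13.6 and 14.4 at P0 and 4.81 at E16.5 in surface endothelial cells, against 2.94 and 3.84 at P0 and 0.670 at E16.5 in capillary-gated cells. It was higher than in the other classes in every library, by 2.85 ± 0.125 against all other cells (edgeR adjusted p = 8.57e-07).

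Edn1, Ece1 and Ednrb, which belong to no common list here, were each called higher. Edn1, which encodes the peptide endothelin 1, stood at 1.13 and 2.37 UMIs per 10000 at P0 and 0.182 at E16.5 in surface endothelial cells, against 0.350 and 0.406 at P0 and 0 at E16.5 in capillary-gated cells. Ece1, which encodes the enzyme that cleaves the endothelin precursor, stood at 5.73 and 5.30 at P0 and 3.81 at E16.5, against 1.72 and 0.969 at P0 and 0.979 at E16.5 in capillary-gated cells. Ednrb, which encodes endothelin receptor B, stood at 2.12 and 2.73 at P0 and 1.41 at E16.5, against 1.45 and 0.938 at P0 and 0.361 at E16.5 in capillary-gated cells. Surface endothelial cells were the highest class for each of these genes in each library. Against all other cells the rise was 2.97 ± 0.355 for Edn1 (edgeR adjusted p = 0.000243), 2.61 ± 0.183 for Ece1 (9.89e-06) and 2.20 ± 0.321 for Ednrb (0.000886), all log2 with SE. Without P0 replicate 2 the call of Ednrb was lost (edgeR adjusted p = 0.0552).

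Of the 15 genes listed for endocardium and valve surface, 8 were tested, and 7 were called higher and 1 lower. Of all genes tested, 7.31% were called higher and 6.92% lower. DESeq2 called 5 of the 8 higher and 1 lower. The median log2 difference of the list was 1.69, against -0.03 over all genes tested. Foxc1 stood at 1.77 and 1.32 UMIs per 10000 at P0 and 1.23 at E16.5 in surface endothelial cells, against 0.0645 and 0.25 at P0 and 0.201 at E16.5 in cells outside both gates, a log2 rise of 2.59 against all other cells (edgeR adjusted p = 4.87e-05). Hand2, a basic helix-loop-helix factor of the developing heart, stood at 2.12 and 1.93 at P0 and 2.13 at E16.5 in surface endothelial cells, against 0.580 and 0.704 at P0 and 0.783 at E16.5 in cells outside both gates. It rose by 1.88 (edgeR adjusted p = 0.000126). Gata4, a zinc finger factor of heart development, rose by 1.22 (edgeR adjusted p = 0.0179) and Hapln1, a hyaluronan link protein gene, by 1.24 (edgeR adjusted p = 0.0118), and both lost the call without either P0 library and by DESeq2. The exception was Tbx20, a T-box factor, at 0.955 and 0.843 at P0 and 0.681 at E16.5 in surface endothelial cells, against 4.03 and 2.90 at P0 and 2.26 at E16.5 in cells outside both gates. Tbx20 fell by 1.10 against all other cells (edgeR adjusted p = 0.00383), although capillary-gated cells were lower still, at 0.0730 and 0.0313 at P0 and 0.103 at E16.5.

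Several listed genes were too low to be tested against the other cells and are given by level. Wnt9b, a Wnt ligand of endocardium in mice, stood at 0.273 and 0.481 UMIs per 10000 at P0 and 0.499 at E16.5 in surface endothelial cells and had 0 UMIs in all cells outside both gates. Its level was at least 18.9-fold higher than the limit that 3 UMIs over those libraries would set. Wnt4 stood at 0.702 and 0.602 at P0 and 0.408 at E16.5 in surface endothelial cells, against 0.0967 and 0.0454 at P0 and 0.0224 at E16.5 in cells outside both gates. Adgrg6, an adhesion receptor gene, stood at 0.546 and 0.843 at P0 and 0.726 at E16.5 in surface endothelial cells, against 0 and 0.0227 at P0 and 0.0224 at E16.5 in cells outside both gates. All 3 were higher in surface endothelial cells than in cells outside both gates in each library.

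Of the 10 flow-responsive genes, 8 were tested and 7 were called higher against the other cells, with a median log2 difference of 1.86, and 6 were called higher against capillary-gated cells, with a median of 1.04 against -0.01 over all genes tested there. The first count, read against 7.31% of all genes tested, was also 7 with library totals and by DESeq2. The second count, read against 10.3% of all genes tested, was 5 with library totals and 3 by DESeq2. Klf2 stood at 8.36 and 7.22 UMIs per 10000 at P0 and 4.27 at E16.5 in surface endothelial cells, against 4.56 and 4.66 at P0 and 3.76 at E16.5 in capillary-gated cells and 3.53 and 2.66 at P0 and 2.1 at E16.5 in cells outside both gates. The order of the classes was the same in each library, and Klf2 rose by 0.93 ± 0.128 against all other cells (edgeR adjusted p = 0.000606) and by 0.64 against capillary-gated cells (edgeR adjusted p = 0.000862). Nos3, which encodes endothelial nitric oxide synthase, stood at 1.05 and 1.60 at P0 and 1.59 at E16.5 in surface endothelial cells, against 0.584 and 0.563 at P0 and 1.08 at E16.5 in capillary-gated cells, and rose by 0.96 against capillary-gated cells (edgeR adjusted p = 0.00567). Heg1, a transmembrane receptor of endothelial junctions, rose by 1.42 against capillary-gated cells (edgeR adjusted p = 2.7e-08) and Piezo1 by 1.12 (edgeR adjusted p = 0.00017). Klf2 was not called against capillary-gated cells without P0 replicate 1 (edgeR adjusted p = 0.112), nor Nos3 without P0 replicate 2 (edgeR adjusted p = 0.232), nor either by DESeq2. Klf4 did not pass the test in either comparison, with 1.73 and 1.08 at P0 and 0.0454 at E16.5 in surface endothelial cells, against 1.30 and 0.781 at P0 and 0.258 at E16.5 in capillary-gated cells.

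**Figure D1:**
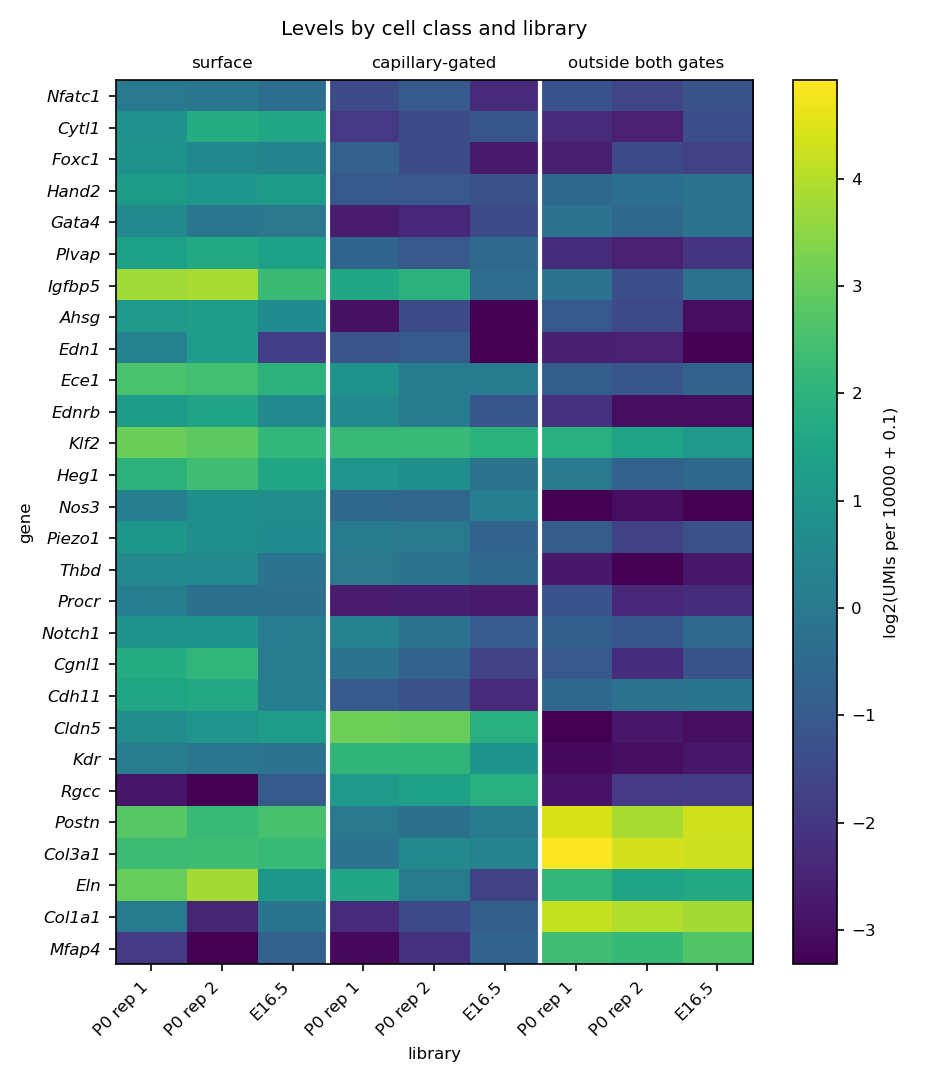
Levels of 28 genes in surface endothelial cells, capillary-gated cells and cells outside both gates of P0 replicate 1, P0 replicate 2 and E16.5, as log2 of UMIs per 10000 with 0.1 added. Nfatc1, Cytl1, Plvap, Ahsg, Ece1 and Ednrb are highest in the surface columns of every library, Cldn5, Kdr and Rgcc in the capillary-gated columns, and Postn, Col3a1, Col1a1 and Mfap4 in the columns of cells outside both gates.

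Of the 10 haemostasis genes, 7 were tested against the other cells, and 4 were called higher and 0 lower, where 7.31% of all genes tested were called higher. Against capillary-gated cells 3 of 6 were called higher, where 10.3% of all genes tested were, and 2 with library totals and 1 by DESeq2. Procr, the protein C receptor gene, stood at 1.07 and 0.722 UMIs per 10000 at P0 and 0.726 at E16.5 in surface endothelial cells, against 0.0584 and 0.0625 at P0 and 0.0515 at E16.5 in capillary-gated cells. It rose by 2.75 against all other cells (edgeR adjusted p = 0.000177). Thbd, the thrombomodulin gene, stood at 1.38 and 1.40 at P0 and 0.771 at E16.5 in surface endothelial cells, against 0.862 and 0.75 at P0 and 0.567 at E16.5 in capillary-gated cells, with a rise of 0.73 against capillary-gated cells (edgeR adjusted p = 0.0426) that lost its call without either P0 library. Vwf, the von Willebrand factor gene of platelet adhesion, stood at 2.01 and 3.33 at P0 and 0.862 at E16.5 in surface endothelial cells, against 1.07 and 0.563 at P0 and 0.0515 at E16.5 in capillary-gated cells, with a rise of 1.68 (edgeR adjusted p = 2.29e-06).

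Signalling genes were mixed. Notch1, a receptor of the Notch pathway, stood at 1.77 and 1.81 UMIs per 10000 at P0 and 0.998 at E16.5 in surface endothelial cells, against 0.467 and 0.363 at P0 and 0.604 at E16.5 in cells outside both gates, and rose by 1.23 against all other cells (edgeR adjusted p = 0.00482, and 0.0994 without P0 replicate 2). Only 3 of 15 Notch genes were abundant enough to test there, and the target Hes1 did not pass (log2 difference 0.46, edgeR adjusted p = 0.208). Of 18 BMP and TGF-β genes, 11 were tested, and 4 were called higher: the coreceptor gene Eng (log2 1.88, edgeR adjusted p = 8.17e-06), the inhibitor of differentiation gene Id2 (1.10, 0.00127), the inhibitory Smad gene Smad6 (1.53, 0.0122) and the ligand gene Tgfb1 (0.81, 0.0339). Smad6 and Tgfb1 lost their calls without either P0 library. DESeq2 called 2 of the 11 higher, and 7.31% of all genes tested were called higher by edgeR. Id1 and Id3, targets of BMP signalling, had log2 differences of 0.15 and 0.29 and were not called. Of 10 transcription factors of the endothelial to mesenchymal transition, 4 were tested and 2 were called lower, Tbx20 and Sox9, where 6.92% of all genes tested were. Sox9, a factor of cartilage and valve interstitial cells, stood at 0.136 and 0 at P0 and 0.363 at E16.5 in surface endothelial cells, against 2.21 and 1.04 at P0 and 1.5 at E16.5 in cells outside both gates.

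The remaining leading genes were Cd59a, which encodes an inhibitor of complement (log2 2.51), Plagl1, an imprinted zinc finger gene (2.29), Tm4sf1, a tetraspan surface protein gene (2.20), Nos3 (2.17) and Mmrn2, an endothelial matrix protein gene (2.14). The edgeR adjusted p of these 5 lay between 1.34e-05 for Cd59a and 0.000345 for Mmrn2. Tm4sf1 stood at 13.9 and 14.7 UMIs per 10000 at P0 and 10.2 at E16.5 in surface endothelial cells, against 4.73 and 3.63 at P0 and 4.33 at E16.5 in capillary-gated cells. Plagl1 stood at 4.56 and 7.54 at P0 and 3.95 at E16.5, against 2.37 and 1.63 at P0 and 1.55 at E16.5 in capillary-gated cells. All 5 were also called higher against capillary-gated cells. The imprinted pair H19 and Igf2, the second a growth factor gene, were called higher against the other cells as well, at log2 2.02 and 1.62.

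At the low end stood Mfap4, a microfibril-associated gene (log2 -4.0, edgeR adjusted p = 4.15e-05), Col1a1, a chain of type I collagen (-3.82, 2.02e-05), Acta2, smooth muscle actin (-3.66, 0.000104), Rgcc, a cell cycle regulator high in the capillary-gated cells (-3.32, 0.00183, and 0.0506 without P0 replicate 2), Dpt, dermatopontin of the matrix (-2.89, 0.000817), and Loxl1, an elastin crosslinking enzyme gene (-2.87, 0.000411). Col1a1 stood at 0.955 and 0.0802 UMIs per 10000 at P0 and 0.817 at E16.5 in surface endothelial cells, against 18.3 and 15.6 at P0 and 13.8 at E16.5 in cells outside both gates. Of 10 pericyte and smooth muscle markers 3 were tested and of 8 leukocyte markers 4, and all of these were called lower, where 6.92% of all genes tested were, but DESeq2 called only 1 of the 4 leukocyte markers. Of 14 cell cycle genes tested, 6 were called lower and 0 higher, and 3 lower by DESeq2. The 8 leukocyte markers summed to 1.70 and 0.0802 at P0 and 0.227 at E16.5 in surface endothelial cells, against 6.41 and 27.1 at P0 and 5.87 at E16.5 in cells outside both gates. Of 14 genes induced by tissue dissociation, such as Fos and Jun, 9 were called lower and 0 higher in surface endothelial cells, and 7 lower by DESeq2. The part of dissociation in the other differences was not tested.

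Repetition between the P0 libraries was described without a test. Of 5971 genes with at least 10 UMIs in the higher class of each P0 library, 234 (3.92%) were at least 2-fold higher in surface endothelial cells than in the other cells in both P0 libraries and 429 (7.18%) at least 2-fold lower. At E16.5, 202 of the 234 and 356 of the 429 lay on the same side. Against capillary-gated cells, 273 of 4740 genes (5.76%) were at least 2-fold higher in both P0 libraries and 236 (4.98%) at least 2-fold lower, of which 240 and 190 lay on the same side at E16.5. Across 2874 genes the log2 ratios of the P0 libraries had a Pearson r of 0.71, and their mean had 0.61 with those of E16.5. Genes are not independent replicates and all ratios share the gate.

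**Figure D2:**
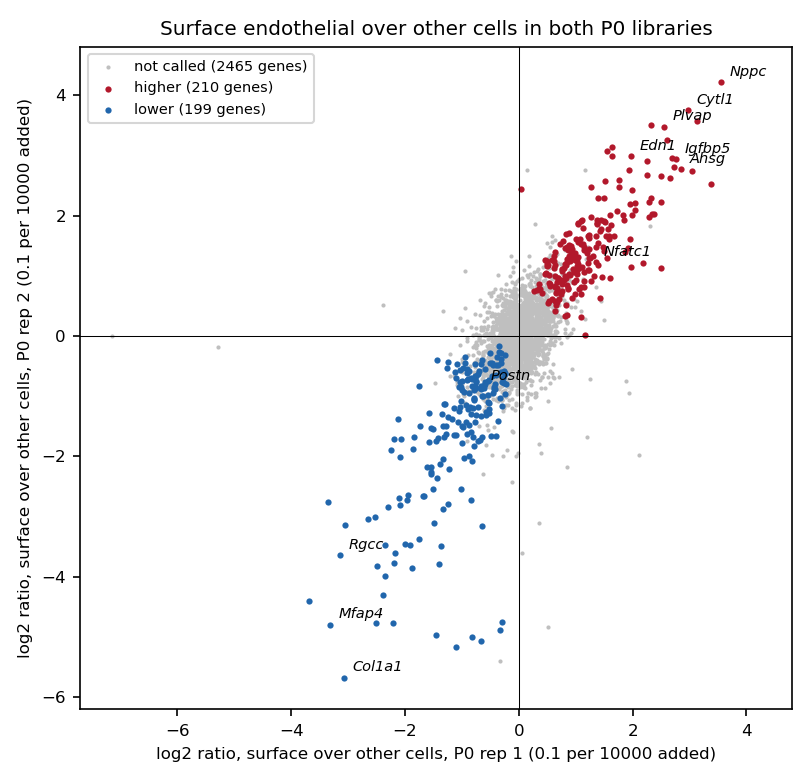
Log2 ratio of surface endothelial over other kept cells per gene in P0 replicate 1 (horizontal) and P0 replicate 2 (vertical), with 0.1 UMIs per 10000 added to each level. The 210 genes called higher (red) lie mostly in the upper right, with Nppc, Cytl1 and Plvap near the end, and the 199 called lower (blue) in the lower left, with Col1a1, Mfap4 and Rgcc.

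Against capillary-gated cells, the endothelium most like them, 259 of 2521 genes were called higher in surface endothelial cells, 10.3% of those tested, and 242 were called lower, 9.6%. Without P0 replicate 1 the numbers were 174 higher and 131 lower, without P0 replicate 2 174 and 167, and without E16.5 305 and 269. The matrix genes Lum, Postn, Mgp, Mfap2 and Vcan and the heart factors Hand2 and Gata4 were on the high side, and Cldn5, Kdr and Sox17 on the low side. All 6 tested genes of the endocardial and valve surface list were called higher, with a median log2 difference of 2.38. Of 22 tested pan-endothelial genes outside the gate, 6 were called higher and 9 lower, with a median of 0.06.

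Among the genes named by size, Ahsg differed most, at log2 4.45 (edgeR adjusted p = 2.76e-12), followed by Lum, a small proteoglycan of collagen fibrils (3.39, 2.76e-12), Cytl1 (3.37, 1.05e-13) and Cdh11, a cadherin of mesenchymal cells (3.0, 1.46e-12). Cdh11 stood at 2.81 and 3.01 UMIs per 10000 at P0 and 1.04 at E16.5 in surface endothelial cells, against 0.409 and 0.313 at P0 and 0.103 at E16.5 in capillary-gated cells and 0.596 and 0.749 at P0 and 0.806 at E16.5 in cells outside both gates. It was therefore higher in surface endothelial cells than in either class in each library. Lum stood at 3.39 and 2.65 at P0 and 1.23 at E16.5 in surface endothelial cells, against 0.175 and 0.313 at P0 and 0.412 at E16.5 in capillary-gated cells, and 12.4 and 10.4 at P0 and 3.18 at E16.5 in cells outside both gates. Its surface endothelial level lay between the other classes in each library. In P0 replicate 1, 21 cells with 4 or more of 9 interstitial markers, Lum among them, held 159 Lum UMIs. The other 58 cells held 15, or 0.489 per 10000. In P0 replicate 2, 9 such cells held 37 and the other 39 held 29, or 1.65 per 10000. At E16.5, 10 such cells held 14 and the other 68 held 13, or 0.723 per 10000. The others of this set were Ecm1, a matrix protein gene (2.90), Mdk, the growth factor midkine (2.87), Tppp3, a tubulin-associated protein gene (2.83), Postn (2.82), Mgp, an inhibitor of matrix calcification (2.70), Apoe, apolipoprotein E (2.63), Mfap2, a microfibril-associated gene (2.57), and Hand2 (2.51), with edgeR adjusted p between 7.98e-19 for Mgp and 3.5e-08 for Tppp3.

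Junction genes divided. Cgnl1, which encodes the junction protein paracingulin, stood at 3.33 and 4.17 UMIs per 10000 at P0 and 0.998 at E16.5 in surface endothelial cells, against 0.789 and 0.5 at P0 and 0.206 at E16.5 in capillary-gated cells, a rise of 2.44. Cldn5, the tight junction claudin of endothelium, stood at 1.56 and 1.89 at P0 and 2.22 at E16.5 in surface endothelial cells, against 8.56 and 7.84 at P0 and 3.61 at E16.5 in capillary-gated cells. It fell by 1.86 ± 0.190 (edgeR adjusted p = 9.31e-11) and was lower in each library. Of 8 junction genes tested, 2 were called higher and 4 lower, where 10.3% and 9.6% of all genes tested were. DESeq2 called 2 of the 8 higher and 3 lower. Kdr, the main VEGF receptor gene, stood at 1.03 and 0.843 at P0 and 0.771 at E16.5 in surface endothelial cells, against 4.07 and 4.09 at P0 and 1.80 at E16.5 in capillary-gated cells, and fell by 1.90 (edgeR adjusted p = 3.74e-10).

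The largest falls against capillary-gated cells were in Tmem255a (log2 -5.62), Rgcc (-4.47), Ly6e (-3.69), Sparcl1, a matricellular protein gene (-3.54), Tcf15, a basic helix-loop-helix factor of capillary endothelium (-3.53), and Ly6c1 (-3.41), with edgeR adjusted p between 1.9e-18 and 4.8e-11. These follow a gate that removed cells with capillary genes. Of 13 listed capillary or coronary markers, 6 outside the gate were tested, and 1 was called higher and 4 lower. Of all genes tested there, 10.3% were called higher and 9.6% lower. Against all other cells 5 were tested, and 2 were called higher and 2 lower, where 7.31% and 6.92% of all genes were. The list also holds Fabp5 and Aqp1, described below in subsets of the surface endothelial cells. Ly6e and Ly6c1 belong to a family of similar genes, so their counts are uncertain. Sox17, an arterial and endothelial factor, had 1 and 3 UMIs at P0 and 0 at E16.5 in surface endothelial cells, against 1.30 and 1.31 UMIs per 10000 at P0 and 0.515 at E16.5 in capillary-gated cells. Of 11 cell cycle genes tested, 7 were called lower and 0 higher, where 9.6% of all genes tested were called lower, but DESeq2 called 1 of the 11.

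Matrix genes that were low in capillary-gated cells were counted in surface endothelial cells, at ratios to the cells outside both gates that differed from gene to gene. Taking the level in cells outside both gates as 100%, Mgp stood in surface endothelial cells at 77.1% and 93.8% at P0 and 82.7% at E16.5, and Mfap2 at 65.4% and 76.4% at P0 and 73.4% at E16.5. Postn stood at 31.8% and 33.4% at P0 and 28.8% at E16.5. Col1a1 stood at 5.23% and 0.515% at P0 and 5.91% at E16.5, with a 95% exact interval of 3.84 to 6.96% in P0 replicate 1. Mfap4 stood at 3.05% and 0% at P0 and 7.91% at E16.5, and the count of 0 in P0 replicate 2 allows up to 3.29%. The intervals of Mgp, Postn and Col1a1 do not overlap in any library, and the part of free RNA in these counts was not tested. In P0 replicate 1, Lum, Dcn and Bgn stood between 25.2% and 28.9%, Col3a1 at 16.2% and Col1a2 at 12.4%.

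Eln, which encodes elastin, went the other way at P0. It stood at 7.97 and 13.8 UMIs per 10000 at P0 and 1.95 at E16.5 in surface endothelial cells, against 4.17 and 2.70 at P0 and 3.02 at E16.5 in cells outside both gates. That is 191% and 511% at P0 and 64.6% at E16.5 of the level outside both gates, so the direction at E16.5 was opposite to that of both P0 libraries. Pdgfra, the receptor gene used as an interstitial marker, stood at 123% and 69.6% at P0 and 203% at E16.5. The hyaluronan link gene Hapln1 stood at 197% and 166% at P0 and 112% at E16.5.

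**Figure D3:**
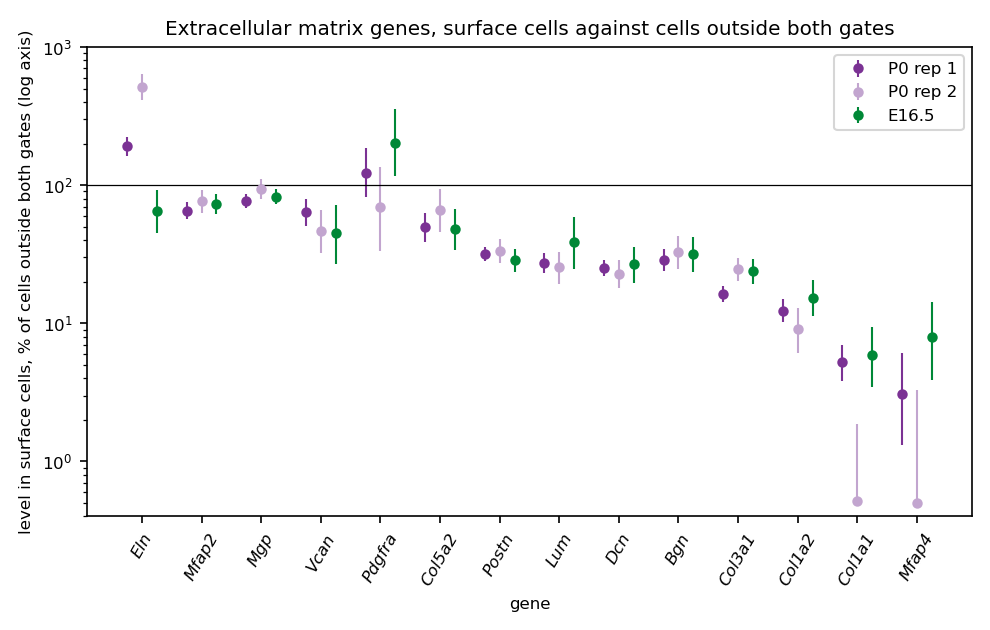
Level in surface endothelial cells as a percentage of the level in cells outside both gates (log axis) for 14 matrix and interstitial genes, with 95% exact intervals, in P0 replicate 1, P0 replicate 2 and E16.5. Values run from 511% for Eln in P0 replicate 2 to 0% for Mfap4 in the same library, which is drawn at the lower edge of the axis at 0.5%.

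The interstitial marker list summed to 25.3 and 17.7 UMIs per 10000 at P0 and 19 at E16.5 in surface endothelial cells, against 2.98 and 5.25 at P0 and 4.17 at E16.5 in capillary-gated cells and 126 and 92.0 at P0 and 83.7 at E16.5 in cells outside both gates. At least 4 of its 9 genes had a UMI in 21 of 79 and 9 of 48 surface endothelial cells at P0 and 10 of 78 at E16.5. Among cells outside both gates this held for 110 of 119 and 69 of 88 at P0 and 143 of 182 at E16.5. The 58 and 39 surface endothelial cells at P0 with fewer had 0 UMIs of Col1a1 but 3.52 and 2.39 UMIs per 10000 of Postn. The 21 and 9 cells at P0 and 10 at E16.5 with 4 or more had Postn at 11.7 and 10.4 at P0 and 15.8 at E16.5, and Col1a1 at 2.38 and 0.273 at P0 and 2.47 at E16.5. Postn and Col1a1 are among the 9 markers that made this split, so their values on its sides are a description. Npr3 stood at 2.28 and 0.546 at P0 and 0.247 at E16.5 in the cells with 4 or more, against 3.88 and 3.58 at P0 and 1.95 at E16.5 in those with fewer. It was lower in the cells with 4 or more in each library. Nfatc1 stood at 0.825 and 1.5 at P0 and 0.493 at E16.5 with 4 or more, against 0.978 and 0.568 at P0 and 0.723 at E16.5 with fewer, so its direction differed between the P0 libraries. Cells with 4 or more had a median of 9687 and 6733 UMIs at P0 and 4254 at E16.5, against 4163.5 and 3889 at P0 and 2360 at E16.5 with fewer. After thinning to 1000 UMIs per cell, 25 of 79 and 12 of 48 surface endothelial cells at P0 and 22 of 76 at E16.5 had 2 or more of the markers, against 3 of 85 and 3 of 41 capillary-gated cells at P0 and 2 of 56 at E16.5. The part of mixed droplets was not tested, and without these cells the comparison with other cells gave 185 genes higher and 170 lower.

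Surface endothelial cells also varied among themselves at P0. Of 1895 genes with at least 20 UMIs in these cells in each P0 library, the median dispersion index (variance over mean after scaling for depth, the smaller of the libraries) was 1.08. Crip1, a LIM domain protein gene, reached 45.4 and 41.9 in the P0 libraries, Eln 25.6 and 42.3, Igfbp5 31.3 and 23.1, Fabp5, a fatty acid binding protein gene, 30.2 and 14.2, and Nppc 22.3 and 14.7. These genes and the subsets that follow, except Eln and Igfbp5, were chosen after their values were seen, so the subsets are described with no test. Other genes varied as well: Malat1, the highest by the smaller index, reached 86.8 and 84.0, the actin gene Actb 37.9 and 70.4, and H19 28.8 and 17.3. Whether a cell has a UMI depends on its depth.

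Prox1, a homeobox factor of lymphatic and valve endothelium, had a UMI in 26 of 79 and 10 of 48 surface endothelial cells at P0 and 2 of 78 at E16.5, against 5 of 85 and 1 of 41 capillary-gated cells at P0 and 0 of 56 at E16.5. Of the lymphatic genes, Lyve1 had 2 and 0 UMIs at P0 in cells with Prox1, against 28 and 14 in those without, and Flt4 had 5 and 0, against 7 and 2. Pdpn, Mmrn1 and Reln had 0 UMIs in the P0 cells with Prox1, and 0, 3 and 0 in those without in P0 replicate 1. Counts this low do not show absence. Fabp5 stood at 17.0 and 13.1 UMIs per 10000 in cells with Prox1, against 40.2 and 40.7 in those without. Mgp stood at 4.42 and 2.82 with Prox1, against 12.5 and 12.4 without, and Cldn5 at 2.64 and 5.13 with, against 0.946 and 0.409 without. Each of these differences had the same direction in both P0 libraries. Cells with Prox1 had a median of 6464.5 and 6430.5 UMIs, against 4802 and 4015.5 without. Across the 79 and 48 cells the correlation of Prox1 with Fabp5 in log values was -0.47 and -0.51, and across the 78 cells at E16.5 it was -0.05, a description in which the cells of a library share its depth range.

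A smaller set of cells carried Nppc, which encodes C-type natriuretic peptide, or Pthlh, which encodes parathyroid hormone-related peptide. Nppc had 60 UMIs in 7 cells and 50 UMIs in 5 cells at P0 and 2 UMIs in 1 cell at E16.5, and 0 UMIs in capillary-gated cells of all 3 libraries, at least 45.6-fold above the limit set by 3 UMIs. Pthlh had 72 UMIs in 10 cells and 29 in 5 at P0 and 1 UMI in 1 cell at E16.5, and 0 in capillary-gated cells, at least 41.5-fold above that limit. The 11 and 7 cells with either gene had Prnp, the prion protein gene, at 11.5 and 16.2 UMIs per 10000, against 0.894 and 0.636 in the 68 and 41 without. Aqp1, a water channel gene, stood at 11.8 and 12.8 with, against 0.965 and 1.09 without, Crip1 at 103 and 164 with, against 22.1 and 28.3 without, and Heg1 at 8.29 and 14.2 with, against 2.94 and 3.99 without. Foxc1 went the other way, at 0.568 and 0.691 with, against 2.02 and 1.41 without, and Cldn5 had 0 UMIs in both libraries with, against 80 and 47 UMIs without. In P0 replicate 2 the depths were alike, with a median of 4149 UMIs in cells with either gene and 4179 without, and in P0 replicate 1 they were 7242 with and 4675 without. At E16.5 only 2 cells had either gene, with Prnp at 19.5, against 0.742 without.

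Cytl1 had a UMI in 24 of 79 and 16 of 48 surface endothelial cells at P0 and 24 of 78 at E16.5, against 3 of 85 and 3 of 41 capillary-gated cells at P0 and 2 of 56 at E16.5. Mgp stood at 16.8 and 19.3 UMIs per 10000 at P0 and 28.0 at E16.5 in cells with Cytl1, against 6.00 and 5.17 at P0 and 10.3 at E16.5 without. Eln stood at 14.1 and 32.8 with Cytl1 at P0, against 4.93 and 5.57 without, and Vwf at 4.18 and 9.17 with, against 0.933 and 0.805 without. All of these were higher in cells with Cytl1 in both P0 libraries. At E16.5 Eln stood at 2.21 with Cytl1, against 1.84 without. The correlation of Cytl1 with Mgp across cells was 0.55 and 0.56 at P0 and 0.52 at E16.5, and that of Cytl1 with Eln 0.52 and 0.51 at P0 and 0.07 at E16.5.

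**Figure D4:**
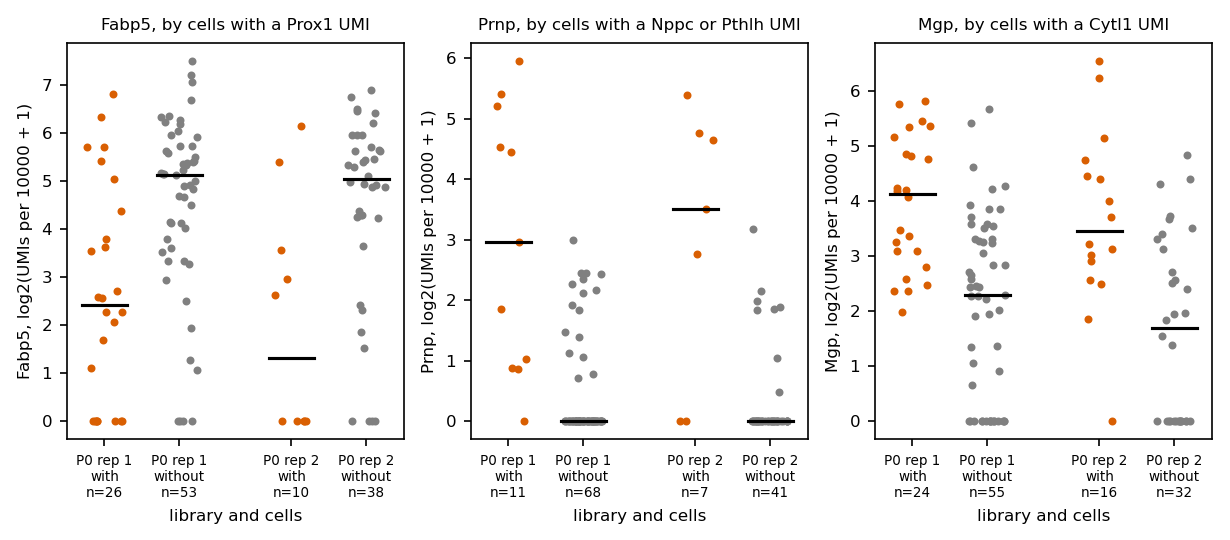
Single surface endothelial cells of the P0 libraries, as log2 of UMIs per 10000 with 1 added, with lines at medians: Fabp5 by a Prox1 UMI, Prnp by a Nppc or Pthlh UMI and Mgp by a Cytl1 UMI, cells with the UMI (orange) left of cells without (grey). In both libraries Fabp5 is lower in the 26 and 10 cells with Prox1 than in the 53 and 38 without, and Prnp and Mgp are higher in the cells with the named gene.

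Between the stages, 432 of 2894 genes were called higher at P0 than at E16.5 in surface endothelial cells, 14.9% of those tested, and 560 were called lower, 19.4%. Stage and library cannot be told apart, because E16.5 has 1 library, which the fit assumes to vary like those of P0. The balance moved with the scaling: higher calls were 43.5% of all calls in these values, 69.9% with library totals, where the median log2 difference of all genes was 0.53 in place of 0.06, and 25.2% with DESeq2, which made 93 higher and 276 lower calls. Fewer genes per cell, Malat1 and ribosomal protein genes (2089 and 2233 UMIs per 10000 at P0 and 3051 at E16.5 in surface endothelial cells) moved with the stage, and their part was not tested.

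Genes of secreted peptides and transcription factors were among those called higher at P0. Edn1 was higher by 2.68 ± 0.775 (log2, SE, edgeR adjusted p = 0.0262), but DESeq2 gave it an adjusted p of 0.0544. Prox1 was 12.6-fold higher at P0, with a 95% counting interval of 3.38 to 105 because E16.5 had 2 UMIs (edgeR adjusted p = 0.00497, DESeq2 adjusted p = 0.0974). Nppc was 15.9-fold higher (interval 4.30 to 133, edgeR adjusted p = 0.00858) and Pthlh 29.2-fold (5.12 to 1.16e+03, edgeR adjusted p = 0.00237). Klf4 had 1 UMI at E16.5 and was 33.5-fold higher at P0 (5.90 to 1.34e+03, edgeR adjusted p = 0.0039), while in the other cells it stood at 1.16 and 0.841 UMIs per 10000 at P0 and 0.25 at E16.5. The Klf4 level thus lay above E16.5 in both P0 libraries in either class.

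Hes1 stood at 3.26 and 3.77 UMIs per 10000 at P0 and 0.545 at E16.5 in surface endothelial cells, a log2 rise of 2.19 (edgeR adjusted p = 0.00196), and in the other cells at 2.22 and 2.21 at P0 and 0.733 at E16.5. Id2 stood at 4.02 and 4.73 at P0 and 0.998 at E16.5 in surface endothelial cells, a rise of 1.64 (edgeR adjusted p = 0.00412). Hmcn1, which encodes the matrix protein hemicentin, stood at 6.92 and 6.86 at P0 and 0.908 at E16.5, a rise of 2.45 (edgeR adjusted p = 0.000278). Both P0 libraries lay above E16.5 for each gene. Eln rose by 1.98 (edgeR adjusted p = 0.0046), Cgnl1 by 1.41 (0.0109, and 0.0892 by DESeq2) and Igfbp5 by 1.06 (0.00311). The adrenomedullin receptor genes divided, with Calcrl higher at P0 by 2.22 (edgeR adjusted p = 0.00319) and its partner Ramp2 lower (log2 -1.21, edgeR adjusted p = 0.000676).

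Of 22 tested pan-endothelial genes outside the gate, 3 were called higher and 5 lower at P0, with a median log2 difference of 0.21. These counts are near the 14.9% and 19.4% of all genes tested that were called higher and lower, so they do not set the list apart. Library totals made them 9 higher and 2 lower and DESeq2 1 and 2. Icam2, an adhesion molecule gene, stood at 2.03 and 2.25 UMIs per 10000 at P0 and 4.40 at E16.5 in surface endothelial cells and fell by 1.53 (edgeR adjusted p = 0.00142). Tie1, an endothelial receptor kinase gene, fell by 0.77 (edgeR adjusted p = 0.0495) and Cldn5 by 0.87 (edgeR adjusted p = 0.0433), neither of them called with library totals or DESeq2, and for Cldn5 the direction turned (log2 0.24) when cells with any capillary gene were left out. Fabp5 fell by 1.27 (edgeR adjusted p = 0.000131) and Mgp by 1.20 (edgeR adjusted p = 0.000623). Of 13 tested genes of the endocardial and valve surface list, to be read against the same shares, Prox1 and Edn1 were called higher at P0. Foxc2, a forkhead factor, was called lower (log2 -1.30, edgeR adjusted p = 0.0364, not called with library totals or DESeq2). Nfatc1 had a log2 difference of -0.09 ± 0.387 (edgeR adjusted p = 0.89), and Foxc1 (-0.10), Hand2 (-0.54), Cytl1 (-0.74) and the flow gene Klf2 (0.40) were not called either. A difference that misses the threshold does not show that the stages are alike.

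**Figure D5:**
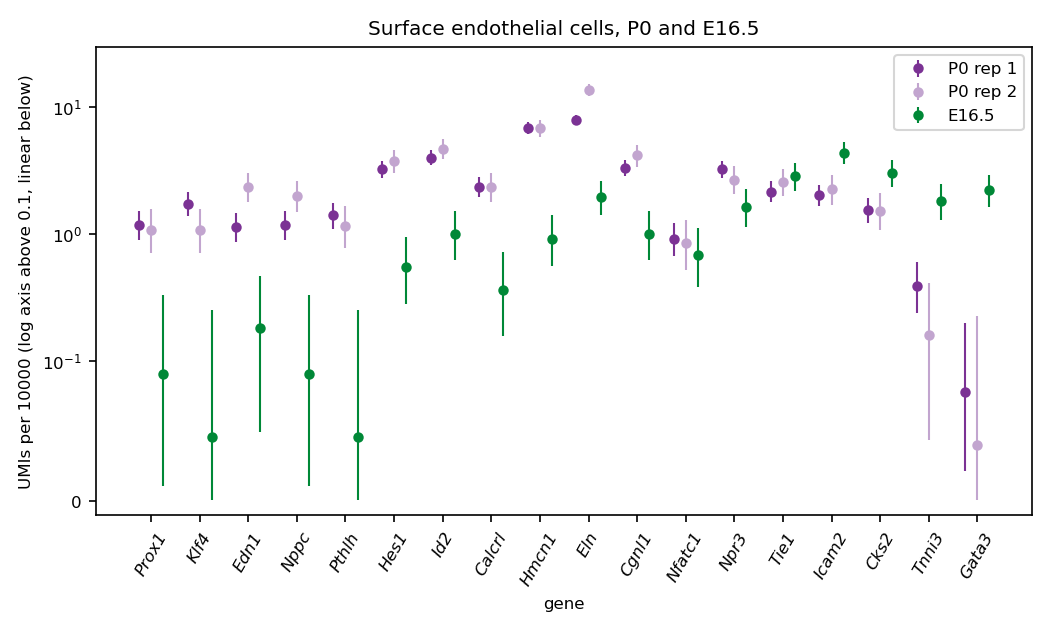
Levels of 18 genes in surface endothelial cells of P0 replicate 1, P0 replicate 2 and E16.5, in UMIs per 10000 (log axis above 0.1, linear below), with 95% Poisson intervals. Prox1, Klf4, Edn1, Nppc, Pthlh, Hes1, Id2, Calcrl, Hmcn1, Eln and Cgnl1 are higher in both P0 libraries, Icam2, Cks2, Tnni3 and Gata3 are lower, and the intervals of Nfatc1 overlap.

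Among the genes named for the size of their stage difference, those higher at P0 were Prpf4b, Malat1, Ifi27l2a, Eif5b, Zbtb20, Mmp14, Klf4 and Mier1. Malat1 was 70.4-fold higher (interval 60.0 to 83.1), and Prpf4b, a pre-mRNA processing kinase gene with 0 UMIs at E16.5, at least 10.0-fold higher than 3 UMIs would give. The other 5 beside Klf4 had 1 UMI each at E16.5, with ratios between 29.8 for Mier1 (5.23 to 1.19e+03) and 70.8 for Ifi27l2a (12.6 to 2.81e+03). Those lower at P0 included Fam221b, Hist1h2al, Myl7, Sln, Gm6525, Gm17430 and Gata3. Gata3, a zinc finger factor, stood at 0.0780 and 0.0401 UMIs per 10000 at P0 and 2.22 at E16.5 in surface endothelial cells, and at 0.123 and 0.0920 at P0 and 2.20 at E16.5 in the other cells, and its stage by class term was not called (edgeR adjusted p = 0.819). Hist1h2al and Gm17430 are annotated as processed pseudogenes and Gm6525 is a gene model, so their counts are uncertain.

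Of 10 cardiomyocyte markers, 8 were tested between the stages, and 4 were called lower at P0 and 0 higher, where 19.4% of all genes tested were called lower. DESeq2 called 2 of the 8. The 10 listed markers summed to 5.87 and 2.13 UMIs per 10000 at P0 and 28.1 at E16.5 in surface endothelial cells, against 2.79 and 12.8 at P0 and 58.4 at E16.5 in cells outside both gates, and at least 9 of the 10 had a UMI in surface endothelial cells of each library. Myl7, an atrial myosin light chain gene, stood at 0.0195 and 0.843 at P0 and 17.6 at E16.5 in surface endothelial cells (log2 -6.31, edgeR adjusted p = 0.000122, DESeq2 adjusted p = 0.159). Sln, an atrial regulator of calcium pumping, was in 3 surface endothelial cells at E16.5. Of 12 dissociation genes tested, 6 were called higher at P0, where 14.9% of all genes tested were called higher, and 0 lower. Fos was higher by 1.93, Jun by 1.66 and Dusp1 by 3.06, and DESeq2 called 4 of the 12 higher. The part of either list in the stage differences was not tested.

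Whether the stage difference of surface endothelial cells differed from that of the other cells was tested directly, and 0 of 2884 genes were called in each direction (0.0%). An unadjusted edgeR p under 0.05 was reached by 227 genes, and DESeq2 also called 0, with 9 genes at an unadjusted p under 0.05. The 5 genes with the smallest unadjusted edgeR p were Mrps5 (log2 -4.56), Myl7 (3.41), Nupr1 (3.18), Hspb1 (2.13) and Cldn5 (-2.11). Their edgeR adjusted p lay between 0.179 and 0.229. So none of the stage differences above was shown to be particular to the surface endothelium.

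The share of kept cells that passed the gate was 27.9% in P0 replicate 1 (exact Clopper-Pearson 95% interval 22.8 to 33.5%), 27.1% in P0 replicate 2 (20.7 to 34.3%) and 24.7% at E16.5 (20.03 to 29.8%). The intervals overlap. After thinning each cell to 1000 UMIs the shares were 27.6% and 21.5% at P0 and 17.5% at E16.5, so the gate depends on depth, and the tomato sort and the dissection set which cells could enter.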

How the data were processed

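The deposited values are UMI counts per gene and cell, whole numbers to which the authors applied no normalization, made with Cell Ranger 2.1.1 on mm10 per the submitters' processing notes. The deposited gene tables hold 27998 Ensembl identifiers with symbols. In 15 cases the symbols differ between tables, and the identifier was used. Positions are from GENCODE vM21 (GRCm38), which held 27645 identifiers. The sources used here give neither the counting strand nor the rule for keeping cells, so overlapping and antisense genes are uncertain.

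The members and gene lists were chosen with earlier results of these data known. Raw counts were summed per library and class and tested with edgeR 4.0.16 (R 4.3.3, limma 3.58.1), TMM scaling, the quasi-likelihood test and Benjamini-Hochberg adjustment over all genes whose mean CPM reached that of 10 counts in the smallest sum. Comparisons between classes had the library as a block, since both sums of a pair come from the same library. The stage fit has 1 residual degree of freedom. DESeq2 1.42.0 was an alternative, and alternatives also changed scaling, filters, the gate, doublets (scrublet in scanpy 1.11.5) and left out each library. Python 3.11.15, numpy 2.4.6, scipy 1.17.1, pandas 2.3.3 and matplotlib 3.10.9 were used. Doublets were left in.

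Named genes were the 12 largest and 6 smallest differences between classes, and the 8 largest and 8 smallest between stages. These were taken among called genes with at least 1 UMI per 10000 in the higher class in each library, without gate genes. For the stage by class term, where 0 genes were called, they were the 5 with the smallest unadjusted p. Up to 4 members of each list with the smallest adjusted p, and pathway genes, were also named. Median sequencing depth in surface endothelial cells was 2447.5 to 4894 UMIs per cell. A fold against 0 UMIs was computed against 3 UMIs over the group. One gene named by size between stages is not reported here.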

Additional observations from a re-analysis of the deposited data

How the results depend on the processing

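Over the alternatives run, 2197 values of named genes and called list genes kept direction and side of the threshold, 415 fell below it (139 without the replicate block, 67 by DESeq2, 50 without P0 replicate 2), 9 passed it, 59 moved and 1 reversed, Cldn5 between stages (log2 0.24 with none of the capillary genes allowed). The counts of calls moved more, and the cause was not tested unless the alternative itself has fewer genes or samples. Against the other cells, calls higher and lower were 115 and 96 with at least 1000 genes per cell, and 121 and 101 with none of the 3 capillary genes allowed. Calls lower there were 619 without a filter on low values and 121 by DESeq2. Leaving out a library gave 81 to 287 higher and 64 to 241 lower. Against capillary-gated cells they were 166 and 136 with at least 1000 genes and 134 and 118 by DESeq2, and calls higher were 391 without a filter and 169 with none of the capillary genes. Leaving out a library gave 174 to 305 higher and 131 to 269 lower. Both sums of a pair share a library, and without the replicate block that uses this pairing the calls dropped to 20 and 7 against the other cells and 28 and 27 against capillary-gated cells. Between stages, calls were 826 higher and 356 lower at P0 with library totals, 93 and 276 by DESeq2, and 358 lower with at least 1000 genes. The stage by class term had 25 larger and 6 smaller calls without a filter, 15 and 13 with none of the capillary genes, and 1 and 1 with at least 3 endothelial genes. It had 1 larger call with at least 1000 genes, without the limit on mitochondrial UMIs, or without cells of 4 or more interstitial markers. The share passing the gate was 18.0% and 15.3% at P0 and 15.2% at E16.5 with none of the capillary genes, and at E16.5 16.8% with at least 3 endothelial genes and 17.5% after thinning. No paired analysis was possible because E16.5 has 1 library, so stages share fewer than 2 replicate numbers, and without a P0 library the stage difference is a value with no test. Depth limits genes near 0.1 UMIs per 10000 in the E16.5 library, which had 220371 UMIs in surface endothelial cells.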
